A study of Homo sapiens with 12 samples.

Results

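The response of 2 human breast cancer cell lines to the same plant extract was compared here gene by gene, over 12 of the 12 samples of the study. MDA-MB-231 and HCC1937 are established lines from triple-negative tumours, which lack hormone receptors and HER2 amplification. The 4 groups held 3 RNA-seq libraries each. Untreated MDA-MB-231 (E1, E2 and E3) and MDA-MB-231 with 140 µg/mL of an aqueous Kalanchoe pinnata extract (E7, E8 and E9) were grown in DMEM. Untreated HCC1937 (E25, E26 and E27) and HCC1937 with 66 µg/mL (E31, E32 and E33) were grown in RPMI medium. All cultures had 10% fetal bovine serum and antibiotics, and were kept for 72 h at 37 °C in 5% CO2. Line, medium and extract concentration change together, so their parts in any difference below cannot be told apart. Nothing in the labels states that the libraries of a group came from separate cultures, so p-values describe how far these particular libraries scatter, and that scatter may be technical.

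The difference of a gene is its extract effect in HCC1937 (log2 fold change of E31, E32 and E33 over E25, E26 and E27) minus its effect in MDA-MB-231 (E7, E8 and E9 over E1, E2 and E3). A gene is said to be higher or lower in response, always in HCC1937 relative to MDA-MB-231, where the difference passed an adjusted p of 0.05. A positive difference can arise from a rise in HCC1937, a fall in MDA-MB-231, or both, so the effect in each line is given beside it. Levels are CPM, with library sizes adjusted by TMM factors, so a level is a share of the library. Cells answer plant and drug exposures through a few well-known programmes. Heat shock factor induces chaperones when proteins misfold, AP-1 and its early response partners answer growth and stress kinases, ATF4 answers amino acid shortage and stress of the endoplasmic reticulum, and interferon signalling keeps antiviral genes on through factors that include STAT2 and IRF9.

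Library totals ran from 16170545 to 31337431 counts. The library E7 stood apart from the other extract libraries of MDA-MB-231. Mitochondrially encoded genes took 10.7% of its counts, beside 4.63% in E8 and 4.78% in E9 and 2.76 to 3.98% in the other 9 libraries. Its lowest Spearman correlation with a library of its group was 0.9658, while the lowest outside that group was 0.9968. Without E7 more genes passed in both directions, so counts of gene lists are also given without it, to be read beside the shares of all genes without E7 given below. Defining markers set the lines apart: VIM, a mesenchymal filament gene, stood at 3736 CPM in MDA-MB-231 controls and 13.9 CPM in HCC1937 controls, and KRT17, a basal keratin, at 0.0971 and 444 CPM.

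Of 14133 genes tested out of 19516, 4539 differed in response between the lines, or 32.1%. A total of 1630 genes (11.5%) were higher and 2909 (20.6%) lower in HCC1937. Of these, 741 were higher and 1305 lower by at least 1 on the log2 scale, that is 2-fold. Higher genes made up 35.9% of the calls, and this split moved with the scaling: 46.9% with DESeq2 size factors in edgeR, 47.0% in DESeq2, 22.8% with library totals alone, 46.8% with an offset for transcript length and GC content, and 48.6% with that offset and without E7. The median difference over all genes was -0.165, and it moved to -0.053 with DESeq2 size factors and to -0.317 with library totals alone. Differences of single genes are best read against that shift. Without E7, 3554 genes (24.7% of 14360) were higher and 4780 (33.3%) lower. Counts of gene lists below are to be read beside 11.5% higher and 20.6% lower, or beside 24.7% and 33.3% without E7. List counts with the length and GC offset are to be read beside 2593 higher and 2947 lower of the 14133 genes. A count near these shares is no result about its list. Of the 4539 calls made with all libraries, 4510 passed again without E7 in the same direction and 0 turned.

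Most genes called in both lines moved the same way. Extract effects correlated across genes between the lines (Pearson r = 0.830 over 9825 genes measured in both, 0.815 without E7, a description only since genes are not independent). In MDA-MB-231, 33% of tested genes rose and 32.8% fell, and in HCC1937 32.7% rose and 39.1% fell. Among genes called in both lines, 7002 moved the same way and 551 moved in opposite directions with a called difference. Of the latter, 224 (1.58% of tested genes) rose in HCC1937 and fell in MDA-MB-231, and 327 (2.31%) did the reverse. Differences of size within a shared direction were more common. A total of 942 genes fell in both lines and more in HCC1937, 268 fell in both and more in MDA-MB-231, 511 rose in both and more in HCC1937, and 430 rose in both and more in MDA-MB-231. A further 403 genes rose and 772 fell in HCC1937 alone, 423 rose and 217 fell in MDA-MB-231 alone, and 22 were called in neither line.

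**Figure D1:**
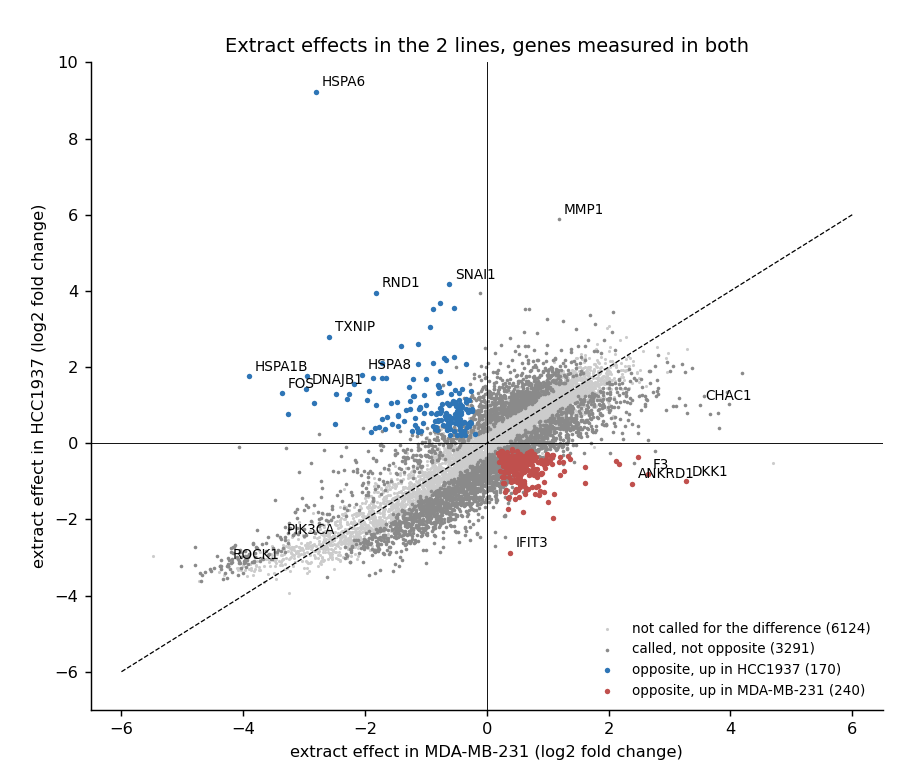
Extract effect of each gene in MDA-MB-231 (horizontal axis, log2 fold change) and in HCC1937 (vertical axis, log2 fold change) for the 9825 genes measured in both lines; the dashed line marks equal effects. Blue points rose in HCC1937 and fell in MDA-MB-231 (170 genes), red points did the reverse (240 genes), and HSPA6, with a difference of 12.03, lies farthest from the dashed line.

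**Figure D2:**
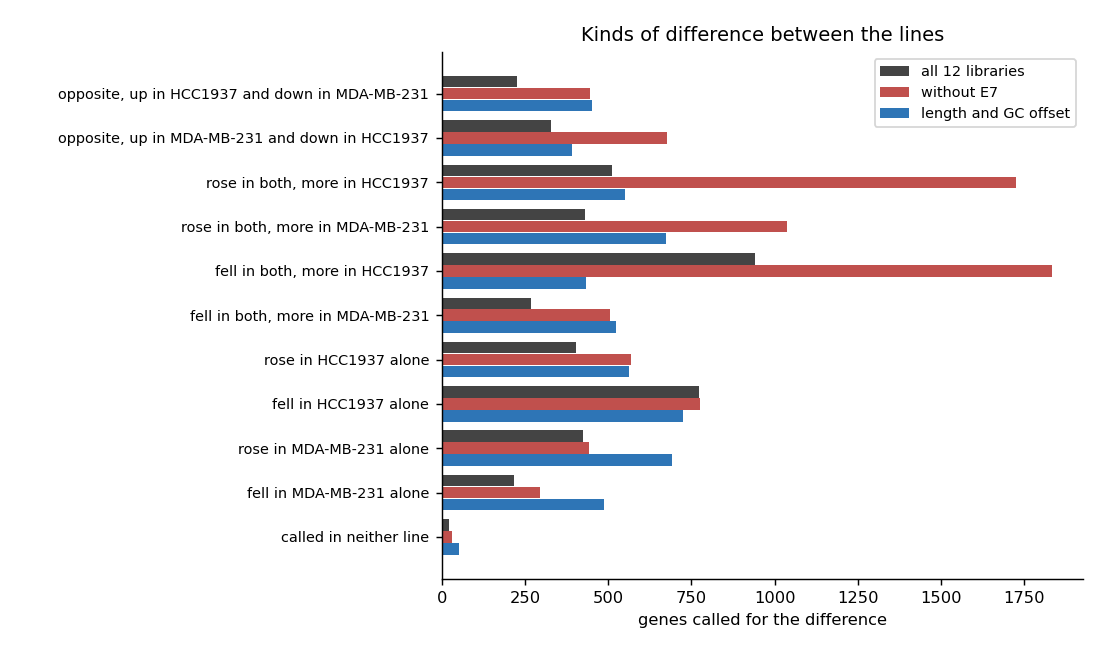
Number of genes of each kind of difference (horizontal axis, genes called) with all 12 libraries, without E7 and with the offset for length and GC content. Genes that fell in both lines and more in HCC1937 numbered 942 with all libraries, 1835 without E7 and 434 with the offset, while opposite genes that rose in HCC1937 numbered 224, 445 and 450.

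Genes of one line left traces in the other. For 36 genes that stood at 50 CPM or more in MDA-MB-231 controls and below 1% of that in every HCC1937 library, the median level in HCC1937 was 0.301 to 0.416% of the MDA-MB-231 level in the 3 control libraries and 0.0378 to 0.0641% in the 3 extract libraries. Of these 36 genes, 0 to 1 stood at 0 reads in a control library and 14 to 15 in an extract library. In the other direction, 86 genes of HCC1937 stood at 0.0173 to 0.0421% in MDA-MB-231 controls and at 0 to 0.00443% in its extract libraries, where 35 to 41 were already at 0 reads in controls and 42 to 51 with extract. The part of these traces in the calls was not tested, but 140 lower and 64 higher calls had both HCC1937 means under 1 CPM, and 110 lower and 71 higher calls both MDA-MB-231 means. Genes are called measured in both lines where the highest group mean of each line was at least 5 CPM and at least 2% of that of the other line, a rule chosen after these traces were seen. Of the 9825 such genes, 3701 differed (37.7%), 1331 higher and 2370 lower.

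The title of the series names 4 genes for migration and invasion, and all 4 fell in both lines. The falls are not adjusted for transcript length and GC content, whose part in them was not tested. For 507 genes over 8 kb with at most 42% GC, the median effects were -1.74 in MDA-MB-231 and -1.97 in HCC1937. ROCK1, a kinase that drives actomyosin contraction (chr18:20946906-21111851, minus strand, GRCh38), stood at 65.0, 67.0 and 68.8 CPM in MDA-MB-231 controls and at 4.62, 2.42 and 3.71 CPM with extract. In HCC1937 it went from 64.9, 73.0 and 66.9 CPM to 8.78, 6.43 and 7.43 CPM. The starting levels of ROCK1 overlapped between the lines, and with extract every HCC1937 library was above every MDA-MB-231 library. Its fall was therefore larger in MDA-MB-231 (difference 1.08 ± 0.25 SE, adjusted p = 0.00642). PIK3CA, the catalytic subunit alpha of phosphoinositide 3-kinase, fell 10.4-fold in MDA-MB-231 and 5.71-fold in HCC1937 (difference 0.86 ± 0.21, adjusted p = 0.00925). It stood at 2.70 to 4.80 CPM with extract in MDA-MB-231 and at 5.30 to 5.95 CPM in HCC1937, without overlap.

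ROCK2, the partner kinase of ROCK1, fell 13.2-fold and 8.51-fold, a difference of 0.64 ± 0.22 (adjusted p = 0.0423). The ROCK2 call was lost, with the same sign, when any one of E1, E2, E3, E25, E26, E27, E31 or E33 was left out (0.56 to 0.69, adjusted p = 0.055 to 0.0983 by edgeR), with library totals alone and with limma voom. JAK2, the kinase below cytokine receptors, fell 5.73-fold and 7.32-fold, and its difference of -0.35 ± 0.43 did not pass (adjusted p = 0.574). JAK2 was a low transcript, at 0.854 to 1.42 CPM with extract in MDA-MB-231 and 0.243 to 0.683 CPM in HCC1937.

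Of the named genes, HSPA6 had the largest difference. This gene, a strictly stress-inducible HSP70 (chr1:161524540-161526910, plus strand), stood at 79.8, 81.2 and 79.3 CPM in MDA-MB-231 controls and fell to 11.0, 10.3 and 13.1 CPM. In HCC1937 it went from 0.115, 0.099 and 0 CPM, 6 reads in all, to 44.8, 44.0 and 47.8 CPM. The gene was thus high in untreated MDA-MB-231, near absent in untreated HCC1937, and present in both lines with extract. Its difference was 12.03 ± 0.31 (adjusted p = 1.9e-09), and its size rests on those 6 reads. HSPA8, the constitutive HSC70, is a far more abundant case of the same kind. It fell from 4706, 4762 and 4857 CPM to 1176, 1142 and 1156 CPM in MDA-MB-231, and rose from 821, 822 and 859 CPM to 2882, 2971 and 2887 CPM in HCC1937. No group of HSPA8 overlapped another, and the order of the lines turned round: HCC1937 had 0.175 times the level of MDA-MB-231 without extract and 2.52 times with it.

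DNAJB1, the main J-domain partner of HSP70, moved likewise. It fell from 1858, 1839 and 1784 CPM to 201, 256 and 241 CPM in MDA-MB-231, and rose from 247, 234 and 239 CPM to 635, 641 and 659 CPM in HCC1937 (difference 4.40 ± 0.14, adjusted p = 2.61e-09). HSPA1B, an inducible HSP70, fell 15-fold from 4375 CPM in MDA-MB-231 and rose 3.37-fold from 193 CPM in HCC1937 (difference 5.66 ± 0.34). HSPA1A, its nearly identical neighbour, rose 3.92-fold in HCC1937 and fell 4.39-fold in MDA-MB-231 from only 7.62 CPM. How reads were split between HSPA1A and HSPA1B cannot be seen in the table, so their separate values are uncertain.

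Not all chaperones took opposite directions. HSP90AA1, the inducible HSP90, fell in both lines, in MDA-MB-231 from 4391 to 492 CPM and in HCC1937 from 1489 to 429 CPM (difference 1.36 ± 0.11, adjusted p = 4.97e-06). HSPH1, an HSP110 exchange factor, also fell in both, 1.98 ± 0.11 less in HCC1937. HSPD1, the mitochondrial chaperonin, fell by 1.12 in MDA-MB-231 while its HCC1937 effect of -0.02 did not pass. BAG3, which links HSP70 to autophagy, rose in HCC1937 (1.37) and fell slightly in MDA-MB-231 (-0.26). SERPINH1, the collagen chaperone HSP47, fell 2.03-fold in MDA-MB-231 and rose 2.39-fold in HCC1937.

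Over the whole HSP70 list, 6 of 17 tested genes were higher and 4 lower (median difference 0.60), beside 11.5% and 20.6% of all genes; the counts were 7 and 4 without E7, and 8 and 1 with the length and GC offset. The lower ones with all libraries were HSPA14, HSPA4, HSPA13 and HSPA9, and of these HSPA4, an exchange factor, had a difference of -0.75 ± 0.11. Of 19 genes of HSP90, its co-chaperones and small heat shock proteins, 8 were higher and 1 lower (median 0.74), 14 and 1 without E7, and 13 and 3 with the offset. Of 34 DNAJ genes 7 were higher and 4 lower (median -0.12, and 0.03 with the offset), and 9 and 10 without E7. HSF1, the heat shock factor itself, rose in both lines, and its difference of 0.32 ± 0.13 did not pass (adjusted p = 0.0852); without E7 it was 0.45 and passed (adjusted p = 2.86e-08).

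**Figure D3:**
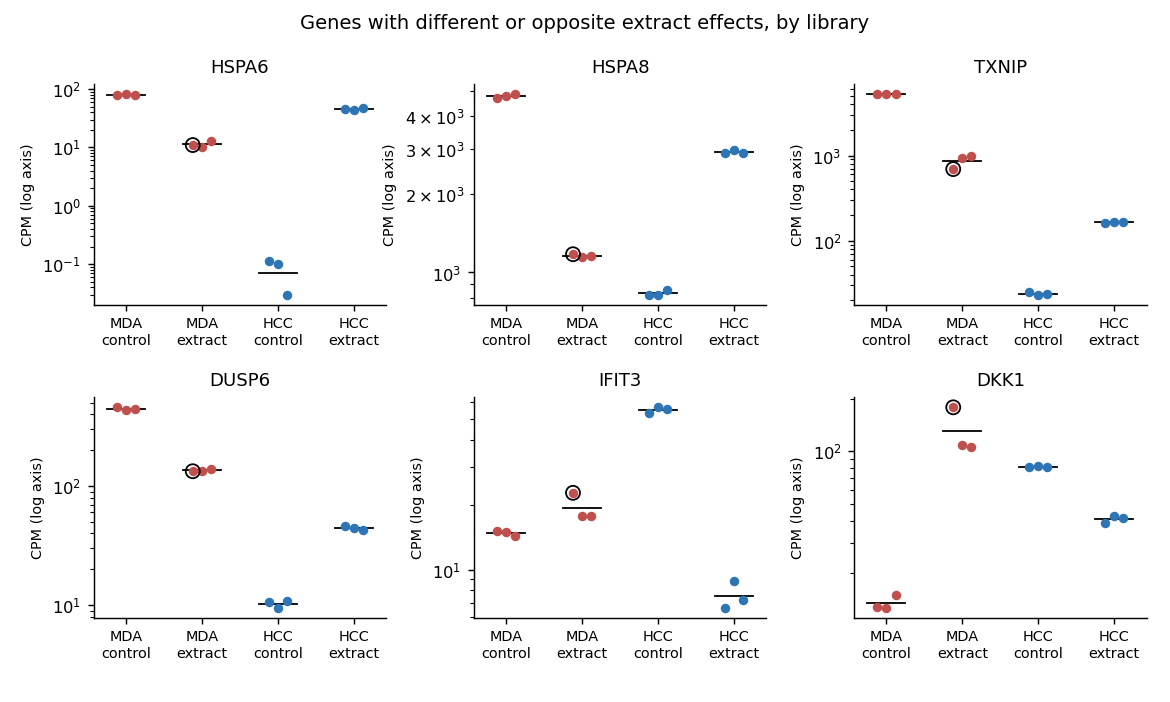
Level of 6 genes in each library (vertical axis, CPM on a log scale) for the 4 groups; points are libraries, bars are group means and the ring marks E7. The HSPA6 point drawn lowest in HCC1937 controls, E27, had 0 reads and is placed at the edge of the axis; HSPA6, HSPA8, TXNIP and DUSP6 fall in MDA-MB-231 and rise in HCC1937, while IFIT3 and DKK1 do the reverse.

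Promoter sequences were read for the genes of the 3 chaperone lists. In the 250 bases before the RefSeq start (GRCh38.p14), the heat shock element of 3 inverted units, GAANNTTCNNGAA on either strand, was found in 33 of 11450 tested genes with a sequence (0.288%). It was found in 5 of 62 genes of the 3 chaperone lists (8.06%), all 5 among the 20 that were higher in HCC1937 (25%), and in 0 of 35 that were not called. The 5 genes were CHORDC1, DNAJB6, HSPA6, HSPA8 and SERPINH1, and 3 windows are shown, from chr1:161524446-161524498 (plus strand), chr11:90223067-90223129 (minus strand) and chr11:75562157-75562209 (plus strand). Capitals mark the element, and in CHORDC1 the capitals hold 3 overlapping matches.
HSPA6: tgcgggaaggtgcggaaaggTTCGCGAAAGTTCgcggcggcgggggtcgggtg
CHORDC1: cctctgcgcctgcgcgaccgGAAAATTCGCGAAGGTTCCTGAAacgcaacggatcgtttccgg
SERPINH1: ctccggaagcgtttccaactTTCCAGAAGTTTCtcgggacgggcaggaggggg
These 3 genes show the range of behaviour behind a higher call: HSPA6 and SERPINH1 moved in opposite directions, while CHORDC1, a co-chaperone of HSP90, fell in both lines (-3.12 in MDA-MB-231 and -1.73 in HCC1937 on the log2 scale, difference 1.39 ± 0.15). A match is a description of the letters and not evidence of binding.

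Of 26 AP-1 and immediate early factors, 15 were higher and 3 lower, beside 11.5% and 20.6% of all genes. Without E7 the counts were 16 and 6, beside 24.7% and 33.3%. The median difference was 1.39 (1.42 without E7). With all libraries 8 were opposite, all of them rising in HCC1937, beside 1.58% of all genes. FOS, the AP-1 subunit (chr14:75278774-75282230, plus strand), fell from 274, 269 and 261 CPM to 23.2, 27 and 27.6 CPM in MDA-MB-231. In HCC1937 it rose from 31.2, 31.5 and 29.4 CPM to 75.7, 83.4 and 69.3 CPM (difference 4.68 ± 0.14, adjusted p = 1.9e-09). FOS was therefore higher in MDA-MB-231 without extract and higher in HCC1937 with it, with no overlap in either state. FOSB rose 12.9-fold in HCC1937 and fell 1.71-fold in MDA-MB-231, and JUNB and IER5 were opposite too (differences 2.01 ± 0.11 and 3.74 ± 0.19).

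ATF3, a stress-induced AP-1 partner, rose in both lines but 11.5-fold in HCC1937 against 1.62-fold in MDA-MB-231. FOSL1, the FRA1 subunit linked with invasion, likewise rose in both, from 38.9 to 401 CPM in HCC1937 and from 200 to 643 CPM in MDA-MB-231 (difference 1.68 ± 0.28, adjusted p = 0.000882). The 3 lower factors were EGR1, JUND and KLF4. EGR1, an immediate early zinc finger factor, fell in HCC1937 from 39.5 to 16.9 CPM and stayed near 265 CPM in MDA-MB-231 (difference -1.22 ± 0.25).

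A list of MAP kinase phosphatases and Sprouty feedback genes, not all of them specific to ERK, included further opposite genes. DUSP6, a phosphatase for ERK, went from 459, 437 and 447 CPM to 133, 135 and 138 CPM in MDA-MB-231, and in HCC1937 from 10.6, 9.50 and 10.9 CPM to 45.8, 44.4 and 42.8 CPM. Its replicates were close in all 4 groups, and the difference was 3.83 ± 0.11 (adjusted p = 1.9e-09). DUSP1 and SPRY4, a phosphatase and a Sprouty inhibitor, were opposite as well, with differences of 2.76 ± 0.11 and 3.73 ± 0.25. Of the 16 genes listed, 8 were higher and 2 lower, beside 11.5% and 20.6% of all genes, and 8 and 3 without E7. With all libraries 5 were opposite, all rising in HCC1937, beside 1.58% of all genes. The 2 lower genes were DUSP14 and DUSP8, which rose in both lines and more in MDA-MB-231.

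**Figure D4:**
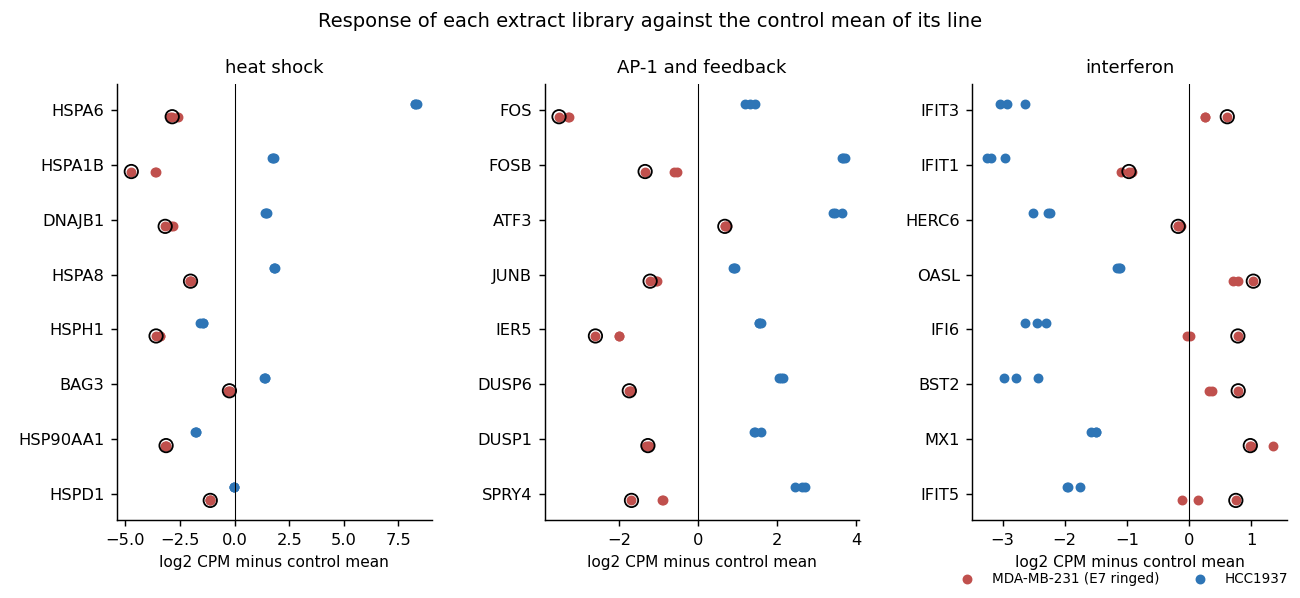
Response of each extract library, as log2 CPM minus the control mean of its line (horizontal axis), for 8 genes each of the heat shock, AP-1 with feedback and interferon lists; red points are MDA-MB-231 with E7 ringed, and blue points HCC1937. The 24 genes are a choice from the lists. The points of the 2 lines lie apart in all 24, which follows the choice and does not describe the lists. Members that went the other way, such as HSPA4, EGR1 and ISG20, are not drawn. HSPA6 is at the far right of the heat shock panel, and the interferon genes drawn lie left of 0 in HCC1937.

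Glucose and hypoxia genes were more often higher than lower in HCC1937. TXNIP, a glucose-responsive inhibitor of thioredoxin and of glucose uptake (chr1:145992435-145996600, minus strand), fell from 5229, 5255 and 5238 CPM to 694, 941 and 980 CPM in MDA-MB-231. In HCC1937 it rose from 24.7, 23.2 and 23.7 CPM to 161, 167 and 167 CPM (difference 5.38 ± 0.18, adjusted p = 4.78e-09). TXNIP stayed lower in HCC1937 in both states, at 0.00456 times the MDA-MB-231 level without extract and 0.189 times with it. Its promoter holds a carbohydrate response element (CACGNGNNNNNCNCGNG on either strand), as did 0.699% of the promoters searched. The TXNIP window is shown with the element in capitals (chr1:145996631-145996687, minus strand).
TXNIP: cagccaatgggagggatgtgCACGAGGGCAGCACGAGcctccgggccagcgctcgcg

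Of 43 glycolysis and hypoxia genes, 22 were higher and 3 lower (median difference 0.60), beside 11.5% and 20.6% of all genes. Without E7 the counts were 28 and 6. With all libraries 6 were opposite and up in HCC1937, beside 1.58% of all genes. ADM, the hypoxia-induced peptide adrenomedullin, fell 3.51-fold in MDA-MB-231 and rose 1.99-fold in HCC1937, and the stress gene NDRG1 fell 3.17-fold and rose 3.29-fold. The enzymes differed in degree rather than direction. ENO1, enolase, rose 1.20 ± 0.21 more in HCC1937, to 7322 CPM, and PKM, pyruvate kinase, 0.94 ± 0.12 more. PGK1, phosphoglycerate kinase, rose in HCC1937 (1.29), while its effect of 0.03 in MDA-MB-231 did not pass. HIF1A, the hypoxia factor subunit, fell in both lines, with effects of -2.96 in MDA-MB-231 and -2.42 in HCC1937. SLC16A1, VEGFA and EGLN1 were the lower members.

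MMP1, interstitial collagenase (chr11:102789920-102798160, minus strand), rose in both lines. It went from 46.1, 49.0 and 47.5 CPM to 120.0, 102 and 100 CPM in MDA-MB-231, and in HCC1937 from 6.64, 6.4 and 6.12 CPM to 380.0, 379 and 368 CPM. The rise was 58.8-fold in HCC1937 against 2.26-fold (difference 4.70 ± 0.12, adjusted p = 1.9e-09). Over the matrix metalloproteinases and their inhibitors the counts were near background, with 4 of 20 higher and 3 lower, and 6 and 5 without E7. TIMP1 and TIMP3, 2 of the inhibitors, were among the higher genes (1.49 ± 0.45 and 0.67 ± 0.11), and for TIMP1 the difference was 2.21 without E7.

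SNAI1, the Snail repressor of E-cadherin, rose from 1.57, 2.24 and 2.25 CPM to 36.9, 38.1 and 35.3 CPM in HCC1937 and fell from 21.7, 24.3 and 20.2 CPM to 16.7, 14 and 12.7 CPM in MDA-MB-231 (difference 4.79 ± 0.20, adjusted p = 5.3e-08). SNAI1 was the single higher gene of 13 regulators of the epithelial-mesenchymal transition with all libraries, beside 11.5% of all genes. Without E7, 2 of these regulators were higher and 4 lower, beside 24.7% and 33.3%. The 1 lower gene with all libraries, VIM, fell in HCC1937 from 13.9 to 2.83 CPM, which is trace level beside 3736 CPM in MDA-MB-231. RND1, a small GTPase-like protein that opposes contraction, rose 15.5-fold in HCC1937 and fell 3.53-fold in MDA-MB-231 (difference 5.78 ± 0.31), from 0.396 to 0.615 CPM in HCC1937 controls. PLAUR, the urokinase receptor, and PLAT, tissue plasminogen activator, rose 2.16-fold and 6.01-fold in HCC1937, while their effects of -0.07 and 0.24 in MDA-MB-231 did not pass. Of 13 plasminogen activators and serpins, 6 were higher and 1 lower, beside 11.5% and 20.6% of all genes. Without E7 the counts were 8 and 2, beside 24.7% and 33.3%.

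Among integrins, laminins and focal adhesion genes, 14 of 33 were higher and 5 lower, beside 11.5% and 20.6% of all genes. Without E7 the counts were 20 and 11, beside 24.7% and 33.3%. The median difference was 0.66 (0.45 without E7). ITGB4, an integrin beta chain that binds laminins of epithelial basement membranes, fell 2.39-fold in MDA-MB-231 and rose 2.17-fold in HCC1937 (difference 2.37 ± 0.21, adjusted p = 1.12e-05). LAMA3, a laminin alpha chain, fell 9.87-fold in MDA-MB-231, and its effect of -0.14 in HCC1937 did not pass. LAMB3, a laminin beta chain, rose in HCC1937 (1.82), and its effect of -0.04 in MDA-MB-231 did not pass. LAMA3 and LAMB3 were thus both higher in response in HCC1937, one through a fall in MDA-MB-231 and the other through a rise in HCC1937. Of 31 collagens and matrix glycoproteins 11 were higher and 2 lower, beside the same shares of all genes, and 14 and 8 without E7. Among the higher ones were COL13A1 (2.21 ± 0.19) and PLOD1 (1.22 ± 0.12), a collagen lysyl hydroxylase.

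A list around the aryl hydrocarbon receptor, which plant compounds can activate, had 3 of 10 genes higher and 1 lower, beside 11.5% and 20.6% of all genes. The list holds the receptor gene AHR and the partner ARNT2 beside targets, so its counts do not describe targets alone. Without E7, 5 were higher and 1 lower. CYP1A1, the classical target of the receptor, was among the higher genes. It rose from 0.538, 0.858 and 0.844 CPM to 10.3, 11.3 and 13.5 CPM in HCC1937, and its level of 6.74 to 7.55 CPM in MDA-MB-231 controls overlapped the 5.76 to 7.65 CPM with extract. The difference of CYP1A1 was 4.06 ± 0.26 (adjusted p = 1.14e-06). ARNT2, a dimerisation partner of that receptor family, rose 3.56 in HCC1937 and fell by 0.54 in MDA-MB-231. CYP1B1, a second target, fell in both lines, 0.64 ± 0.15 less in HCC1937.

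Of 34 NF-kB factors, cytokines and chemokines, 14 were higher and 4 lower, beside 11.5% and 20.6% of all genes. Without E7 the counts were 18 and 5, beside 24.7% and 33.3%. The median difference was 0.49 (0.76 without E7). IL1B, the cytokine interleukin 1 beta, fell from 63.0, 60.7 and 67.3 CPM to 59.0, 43.8 and 48.4 CPM in MDA-MB-231 and rose from 7.11, 5.28 and 6.51 CPM to 25.9, 28.8 and 25.3 CPM in HCC1937 (difference 2.42 ± 0.19). PTGS2, cyclooxygenase 2, fell by 1.26 in MDA-MB-231 with a HCC1937 effect of 0.25, and IL11 rose in both, 1.13 ± 0.13 more in HCC1937. The lower members were TNFSF10, CXCL2, NFKBIZ and IL6, and for TNFSF10, under 1 CPM in MDA-MB-231, the difference of -3.37 ± 1.01 was -2.02 without E7. CXCL2, a neutrophil chemokine, rose in MDA-MB-231 from 19.1 to 171 CPM and stood near 1 CPM in both HCC1937 groups.

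MHC class I genes, which present antigen to CD8 T cells, were higher in 9 of 17 cases and lower in 0 (median difference 0.48). Of all genes, 11.5% were higher and 20.6% lower. Without E7, 10 were higher and 2 lower, and with the length and GC offset 9 and 3. HLA-E, HLA-B and HLA-C rose in HCC1937 by 1.19, 0.76 and 0.83, while their MDA-MB-231 effects lay between -0.03 and 0.06 and did not pass. Reads of HLA genes can be shared between near-identical copies, so single members are uncertain.

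Of 30 replication-dependent histone genes 14 were higher and 1 lower, beside 11.5% and 20.6% of all genes. Their median difference was 1.48 (1.76 without E7). With the length and GC offset 10 were higher and 2 lower, and the median was 1.14. These transcripts mostly lack a poly-A tail, the labels name poly-T bead selection beside a total RNA kit, and several genes have near-identical copies. H2BC21 fell from 85.5, 88.8 and 81.7 CPM to 4.55, 5.91 and 4.61 CPM in MDA-MB-231, while in HCC1937 its 11.9, 10.1 and 10.7 CPM without extract overlapped the 9.11, 10.6 and 11.0 CPM with it (difference 3.98 ± 0.17, adjusted p = 5.32e-08). H2BC11 and H2AC6 also fell in MDA-MB-231 (-3.27 and -2.67 on the log2 scale), and their differences were 4.03 ± 0.27 and 2.50 ± 0.20. H2AC18 fell 7.78-fold in MDA-MB-231 and rose 3.43-fold in HCC1937, and its difference of 4.74 was 5.35 without E7.

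The metallothionein MT1X, a zinc-binding protein induced by metals and stress, went from 203, 194 and 190.0 CPM to 126, 44.5 and 50.9 CPM in MDA-MB-231, and in HCC1937 from 9.49, 8.97 and 8.65 CPM to 54.8, 56.1 and 49.4 CPM. The higher of the MDA-MB-231 extract values was E7, and the difference of 3.98 ± 0.44 was 4.62 without it. Of 9 metallothionein and zinc handling genes, 2 were higher (MT1X and MT2A) and 3 lower, beside 11.5% and 20.6% of all genes. Without E7 the counts were 3 and 5, beside 24.7% and 33.3%. The 3 lower genes with all libraries, SLC30A5, SLC39A10 and SLC30A1, are zinc transporters.

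Of 38 interferon-induced genes tested, 24 were lower and 3 higher in HCC1937 (24 and 5 without E7), beside 20.6% and 11.5% of all genes, and the median difference was -1.24 (-1.21 without E7 and -1.25 with the length and GC offset). In HCC1937, 30 of the 38 fell and 1 rose; in MDA-MB-231, 19 fell and 7 rose. IFIT3, an antiviral protein (chr10:89327894-89340971, plus strand), fell from 53.8, 56.9 and 55.9 CPM to 6.64, 8.80 and 7.20 CPM in HCC1937. In MDA-MB-231 it rose slightly, from 15, 15 and 14.4 CPM to 22.8, 17.8 and 17.7 CPM, with E7 the highest (difference -3.27 ± 0.18, adjusted p = 3.5e-07). The line with more IFIT3 was HCC1937 without extract and MDA-MB-231 with it.

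HERC6, a ubiquitin ligase of the same programme, fell 5.08-fold in HCC1937 and its MDA-MB-231 effect of -0.16 did not pass. IFIT1 fell in both lines, 8.90-fold in HCC1937 and 2.00-fold in MDA-MB-231 (difference -2.16 ± 0.14, adjusted p = 1.5e-06). Factors that drive the programme were also measured. IRF9 had a difference of -1.32 ± 0.15, and that of STAT2 did not pass (-0.59 ± 0.29, adjusted p = 0.141) until E7 was left out (-0.82, adjusted p = 3.06e-08). The receptor chain IFNAR1 was lower too (-1.13 ± 0.13). It comes from a list of 32 JAK, STAT, IL-6 receptor and SOCS genes. Of these 32, 5 were higher and 7 lower, beside 11.5% and 20.6% of all genes, with a median difference of -0.08. Without E7 the counts were 7 and 11, beside 24.7% and 33.3%. The 3 higher members of the interferon list were ISG20, IFITM1 and MX2. MX2, a GTPase that restricts viruses, rose from 53.8 to 78.9 CPM in HCC1937 while its paralogue MX1 fell from 85.4 to 29.6 CPM. For ISG15 the difference of -1.15 ± 0.35 shrank to -0.64 without E7.

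The interferon-stimulated response element, GAAANNGAAA on either strand, was found in the 250 bases before the start of 19 of 30 genes of this list with a sequence (63.3%) and in 281 of all 11450 (2.45%). It was as common among the 18 lower genes, at 11 (61.1%), and it was present in IFITM1 and ISG20, which were higher. Windows of 3 lower genes and of ISG20 are printed because they hold the same element with opposite calls, from chr10:89327821-89327904 (plus strand), chr10:89392487-89392549 (plus strand), chr19:17405725-17405780 (minus strand) and chr15:88638927-88638976 (plus strand). Capitals mark the matches, which overlap in BST2.
IFIT3: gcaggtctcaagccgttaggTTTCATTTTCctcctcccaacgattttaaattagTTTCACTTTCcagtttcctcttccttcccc
IFIT1: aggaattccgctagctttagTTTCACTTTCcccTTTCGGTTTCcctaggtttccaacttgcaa
BST2: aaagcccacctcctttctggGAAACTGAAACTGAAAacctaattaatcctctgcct
ISG20: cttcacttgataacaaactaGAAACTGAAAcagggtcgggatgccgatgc
BST2, the membrane tether tetherin, fell 7.51-fold in HCC1937 to under 1 CPM, and its MDA-MB-231 effect of 0.49 did not pass (difference -3.40 ± 0.34). ISG20, an exonuclease, had a difference of 1.15 ± 0.29.

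Genes that rose in MDA-MB-231 and fell in HCC1937 included secreted regulators. DKK1, a secreted inhibitor of Wnt signalling (chr10:52314296-52318042, plus strand), rose from 12.8, 12.7 and 15 CPM to 178, 108 and 106 CPM in MDA-MB-231 and fell from 81.0, 82.6 and 81.1 CPM to 38.8, 42.7 and 41.6 CPM in HCC1937. No HCC1937 library overlapped across treatment, and E7 was the highest in MDA-MB-231. The difference was -4.27 ± 0.25 (adjusted p = 6.55e-07), and -3.96 without E7. INHBA, the activin A subunit, rose 2.15-fold in MDA-MB-231 and fell 2.51-fold in HCC1937. Both genes come from the added list of genes measured in both lines, chosen after their values were seen.

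Targets of YAP and TEAD, which report cell spreading and tension, were lower in 8 of 25 cases and higher in 5, beside 20.6% and 11.5% of all genes. Without E7, 16 were lower and 7 higher. F3, the tissue factor that starts coagulation, rose from 26, 24.7 and 24.1 CPM to 148, 160.0 and 159 CPM in MDA-MB-231, and fell from 433, 438 and 449 CPM to 246, 260.0 and 247 CPM in HCC1937 (difference -3.45 ± 0.10, adjusted p = 1.9e-09). ANKRD1, a YAP target, rose 5.22-fold in MDA-MB-231 and fell 2.10-fold in HCC1937, and AJUBA rose in both lines, 4.18-fold and 1.23-fold. CCN2, the matricellular factor CTGF, also rose in both, with a difference of -0.81 ± 0.12. So F3 and ANKRD1 were the 2 opposite genes of the list, and other targets differed in degree.

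Of 29 genes of the ATF4 amino acid response, 11 were lower and 3 higher, beside 20.6% and 11.5% of all genes. Without E7 the counts were 17 and 8, beside 33.3% and 24.7%. The median difference was -0.69, and -0.35 with the length and GC offset. Of the list, 22 rose in MDA-MB-231 and 18 in HCC1937. CHAC1, which degrades glutathione, went from 3.70, 4.35 and 4.43 CPM to 45.7, 47.8 and 47.4 CPM in MDA-MB-231, and in HCC1937 from 10.8, 10.1 and 13.1 CPM to 21.2, 23.2 and 23.3 CPM. It rose in both lines, 11.3-fold against 1.99-fold (difference -2.50 ± 0.16). ASNS, asparagine synthetase, and PSAT1, of serine synthesis, were lower too (-1.44 ± 0.24 and -1.30 ± 0.12). The difference of ATF4 itself, -0.05 ± 0.16, did not pass (adjusted p = 0.852). PPP1R15A, the GADD34 subunit that ends the stress response, went the other way (1.76 ± 0.10), as it rose in HCC1937 and its effect of -0.09 in MDA-MB-231 did not pass.

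Of 25 amino acid transporters 8 were lower and 0 higher, beside 20.6% and 11.5% of all genes, and 14 and 4 without E7. SLC38A2, a sodium-coupled importer of neutral amino acids, fell from 330.0, 349 and 350.0 CPM to 95.0, 91.0 and 86.9 CPM in HCC1937, and its 192, 191 and 205 CPM in MDA-MB-231 overlapped the 184, 261 and 268 CPM with extract (difference -2.19 ± 0.17). Of 20 aminoacyl-tRNA synthetases 9 were lower and 5 higher, beside the same shares of all genes. Without E7 the counts were 12 and 6, beside 33.3% and 24.7%. WARS1, for tryptophan, rose by 1.08 in MDA-MB-231 and fell by 0.30 in HCC1937, while YARS1, for tyrosine, rose 0.84 ± 0.09 more in HCC1937.

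Of 44 DNA replication genes, 19 were lower and 7 higher, beside 20.6% and 11.5% of all genes (median difference -0.36). The counts were 26 and 12 without E7, and 16 and 9 with the length and GC offset, which moved the median to -0.20. The list had 32 rising in MDA-MB-231 and 26 in HCC1937. POLE2, a subunit of DNA polymerase epsilon, rose in MDA-MB-231 (0.47) and fell in HCC1937 (-1.26), the single opposite gene of that list. RFC3, a clamp loader subunit, fell in HCC1937 and its effect of 0.03 in MDA-MB-231 did not pass, and FEN1, the flap endonuclease, rose in both lines but less in HCC1937 (-0.75 ± 0.10).

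Of 35 genes of homologous recombination and Fanconi repair, 16 were lower and 3 higher (median difference -0.40), beside 20.6% and 11.5% of all genes. Without E7 the counts were 21 and 4, beside 33.3% and 24.7%. Of the list, 26 fell in MDA-MB-231 and 25 in HCC1937. BARD1 and XRCC2, both of homologous recombination, had differences of -1.42 ± 0.21 and -1.14 ± 0.18. With the length and GC offset the list had 8 lower and 6 higher genes, beside 2947 lower and 2593 higher of 14133 genes. The list then stood near the shares of all genes. RAD51AP1, at -0.82 ± 0.12 without the offset, was no longer called with it (-0.21, adjusted p = 0.417 by edgeR).

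Of 13 mitochondrially encoded genes 7 were lower and 0 higher, beside 20.6% and 11.5% of all genes, and the other 6 did not pass. The median difference of the 13 genes was -1.14, and -0.67 without E7. Without E7, 10 were lower and 2 higher, beside 33.3% and 24.7%. CYTB, cytochrome b of complex III, went from 299, 284 and 277 CPM to 7541, 2271 and 2331 CPM in MDA-MB-231, and in HCC1937 from 1980, 2052 and 2069 CPM to 2682, 2750 and 2589 CPM. E7 thus stood more than 3 times above the other extract libraries, but these too lay far above the controls. The difference of CYTB was -3.43 ± 0.53 (adjusted p = 0.000531), and -2.59 without E7. ND1, of complex I, had -2.95 ± 0.57, and -2.01 without E7. For COX2, a subunit of complex IV, the value did not pass and changed sign without E7 (-0.72 to 0.07).

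Nuclear genes of the respiratory chain and the ribosome depended on E7 as well. Of 66 nuclear-encoded subunits 7 were higher and 1 lower with all libraries, beside 11.5% and 20.6% of all genes. Without E7, 62 were higher and 1 lower, beside 24.7% and 33.3%. Of 77 cytosolic ribosomal protein genes 2 were higher and 0 lower, against 77 and 0 without E7, beside the same shares. The median difference of the ribosomal genes moved from 0.31 to 0.95. The median response of the ribosomal genes was 1.43 in E7, 0.13 in E8 and 0.12 in E9, beside 1.07 in E31. E7 was thus apart from E8 and E9 in this group, and closer to the HCC1937 libraries.

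**Figure D5:**
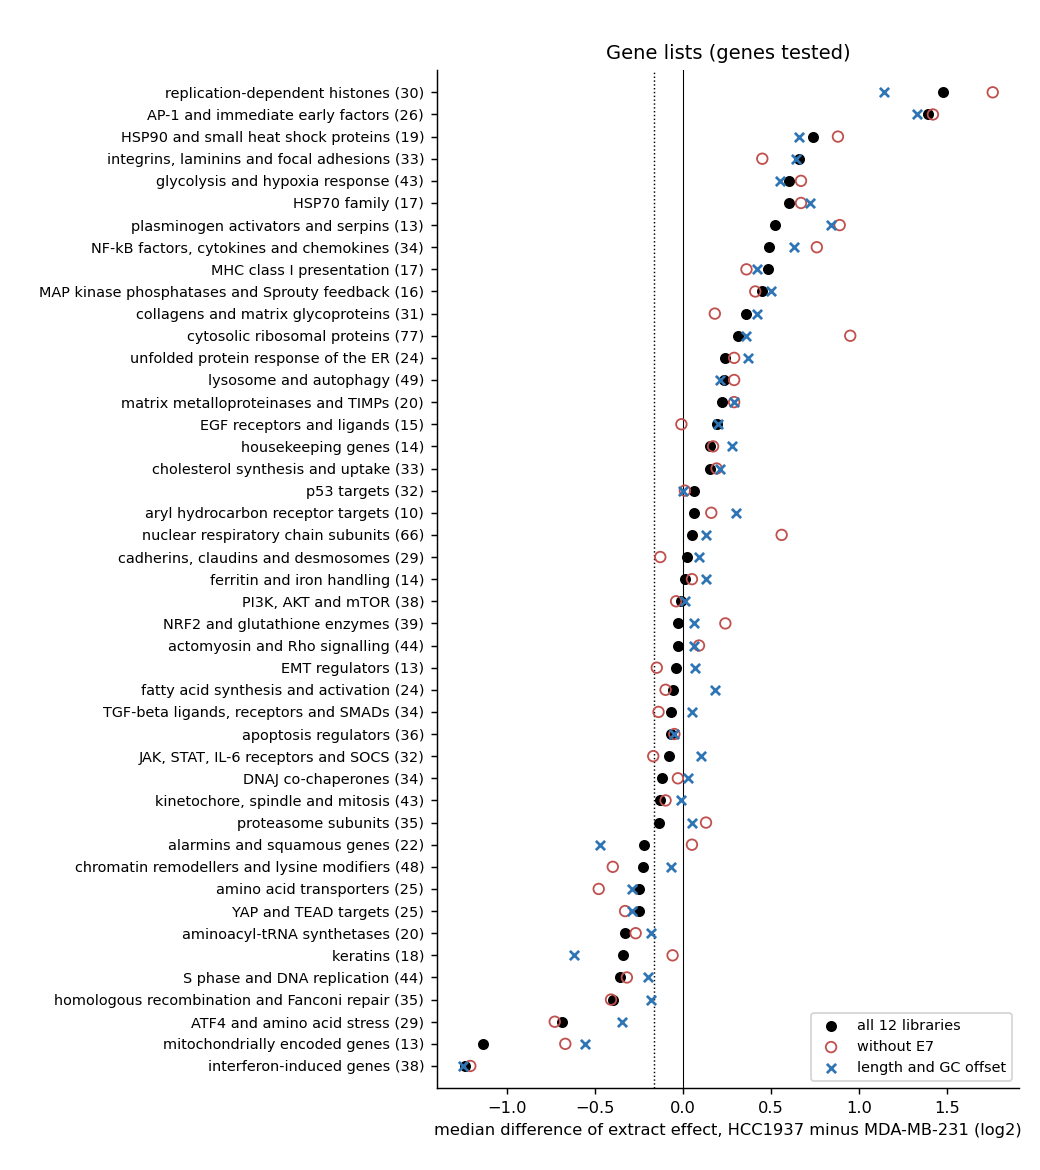
Median difference of extract effect (horizontal axis, HCC1937 minus MDA-MB-231, log2) of the lists with at least 10 tested genes, with the number tested in brackets; filled points use all libraries, open points leave out E7, crosses use the length and GC offset, and the dotted line is the median of all genes, -0.165. With all libraries, histones and AP-1 factors stand at the top with 1.48 and 1.39 and interferon genes at the bottom with -1.24; the ribosomal list moves from 0.31 to 0.95 without E7.

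Among the 3994 genes eligible under the rule for naming, the largest negative differences belong to genes near absent from HCC1937. That rule asks for a mean of at least 5 CPM over all libraries. Genes near absent from HCC1937 can reach it only through MDA-MB-231, so the filter has a part in this ranking. By size they were MAGEA12, RPL39L, MAGEA3, CAMK1, CHST2, ARMCX2, ARMCX1, TRIM68, FABP5 and EPDR1, with differences from -6.57 to -4.92. MAGEA12, a cancer-testis antigen, stood at 15.9, 17.2 and 13.6 CPM in MDA-MB-231 controls and at 45.6, 50.2 and 52.2 CPM with extract, while HCC1937 held 0.0384, 0.066 and 0.352 CPM and then 0 in all 3 extract libraries. Its fall in HCC1937 rests on 13 reads, most of them in E27, and without E27 its difference was -5.10. RPL39L, a ribosomal protein paralogue, had 18 reads in HCC1937 controls and 0 with extract, and its difference was no longer called when any 1 of 8 libraries was left out (adjusted p by edgeR from 0.0537 to 0.103). TRIM68 lost its call without E25, E31, E32 or E33, CAMK1 without E25 or E33, and CHST2 without E27 (-4.36, adjusted p by edgeR = 0.0711). These genes were at the trace level described above, whose part in the calls was not tested. The rise in MDA-MB-231 does not rest on traces: MAGEA12 rose 3.17-fold and RPL39L 2.18-fold there.

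Opposite genes with the largest smaller effect, by the rule for naming, included the same kind. NRSN2 rose 3.73-fold in MDA-MB-231 and stood at 0.352 to 0.429 CPM and then 0.0377 to 0.121 CPM in HCC1937. ADAMTS6, a secreted protease, rose 3.12-fold in MDA-MB-231 and fell 3.78-fold in HCC1937 from 2.04 to 2.57 CPM. B4GALNT1 and UCP2 rose 3.08-fold and 2.88-fold in MDA-MB-231, also from low levels in HCC1937, whereas NEDD9, a focal adhesion scaffold, fell 2.82-fold in HCC1937 from 39.0 to 43.3 CPM and was near 1 CPM in MDA-MB-231 controls. In the other direction SLC19A1, the folate carrier, rose 3.83-fold in HCC1937 from 28.7 to 110.0 CPM while MDA-MB-231 held 38 reads without extract and 10 with it. TENT5C, a poly-A polymerase, fell 6.56-fold in MDA-MB-231 and rose 6.72-fold in HCC1937, from 0.33 to 0.774 CPM.

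Transcript length and GC content tracked the extract effects strongly in each line and the difference weakly. A smooth surface of both accounted for 40.1% of the variance of the effect in MDA-MB-231, 51.5% in HCC1937 and 7.85% of the difference (10.9% without E7), over 11185 genes. For 507 genes over 8 kb with at most 42% GC, the median effects were -1.74 and -1.97 and the median difference -0.18. For 1037 genes of at most 2 kb with over 58% GC, the medians were 0.79 and 0.88, and the median difference was 0.06, or 0.36 without E7. An offset for both kept 3636 of the 4539 calls in the same direction and turned 0.

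Of 14 housekeeping genes tested 3 were higher and 2 lower, beside 11.5% and 20.6% of all genes. Without E7 the counts were 7 and 3, beside 24.7% and 33.3%. The median difference was 0.15 (-0.01 with library totals alone). PGK1 and SDHA were among the higher ones. TFRC and TBP were lower, with differences of -0.75 ± 0.22 and -0.65 ± 0.13. Markers of other cell types were low, with 0 of 4 fibroblast, 1 of 4 endothelial and 1 of 2 leukocyte genes called for the difference. Their summed levels were 4.69 to 34.1 CPM for fibroblast and 0.925 to 25 CPM for endothelial genes, and the leukocyte sum of 64.5 to 528 CPM came mostly from CD68, a lysosomal protein that tumour lines also express.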

How the data were processed

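RNA-seq of 12 libraries in 4 groups of 3 was analysed. The deposited table holds estimated counts per gene, which the authors made from reads with fastp 0.23.4, Salmon 1.10.3 and GRCh38, per the submitters' processing notes. Their annotation is not given in the sources used here. Both poly-T bead selection and a stranded total RNA kit are named in the labels. A serial number in the cell line tag made sample titles the source of the groups. Of the deposited counts, 52.8% were not whole, and they were rounded.

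From them, edgeR 4.0.16 (R 4.3.3) was run with TMM scaling, a filter on low counts over the 4 groups and the quasi-likelihood test of the difference, with Benjamini-Hochberg adjustment over 14133 genes. CPM were computed here, per-library responses from log2 CPM with a prior count of 2, and ± after a difference is its standard error. The script was tested on simulated data whose scatter was set without E7. That test therefore does not cover a library that stands apart as E7 does. Totals set the precision: 3 counts in a library, the limit a count of 0 allows, are 0.099 to 0.213 CPM, for counting error only. Alternatives were DESeq2 1.42.0, limma 3.58.1 voom, other scalings and filters, each library left out, and an offset for transcript length and GC content. RefSeq promoters were matched by Entrez gene ID for 11450 tested genes.

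Named genes are the 4 of the title; the 10 largest differences per direction among genes called with and without E7, with a mean of at least 5 CPM and responses that did not overlap; the 8 opposite genes per direction with the largest smaller effect; for each list, the 3 smallest p-values and members not called; and housekeeping genes. Other genes named, and those measured in both lines, were chosen after their values were seen. The members and gene lists were chosen with earlier results of these data known. A few single-gene results are not reported here.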

Additional observations from a re-analysis of the deposited data

Results flagged for a closer look

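Each gene below stands here because the difference between the effects in the 2 lines itself passed the edgeR test. The title genes ROCK1, ROCK2 and PIK3CA had differences of 1.08, 0.64 and 0.86. Among genes higher in HCC1937, the differences were 12.03 for HSPA6, 5.78 for RND1, 5.66 for HSPA1B, 5.46 for TENT5C, 5.38 for TXNIP, 4.79 for SNAI1, 4.74 for H2AC18, 4.70 for MMP1, 4.68 for FOS, 4.47 for FOSB, 4.11 for HSPA1A, 3.89 for SLC19A1 and 3.85 for HSPA8. Among genes lower in HCC1937, they were -6.57 for MAGEA12, -6.48 for RPL39L, -6.16 for MAGEA3, -5.89 for CAMK1, -5.84 for CHST2, -5.33 for ARMCX2, -5.32 for ARMCX1, -5.23 for TRIM68, -5.10 for FABP5 and -4.92 for EPDR1. Of these 10, the first 8 had 0 reads in HCC1937 with extract, and FABP5 and EPDR1 had 1 read each, so the fitted sizes are no bounds. With 1 library left out, the call was lost for RPL39L (8 libraries), TRIM68 (4), CAMK1 (2) and CHST2 (1). The remaining opposite genes were B4GALNT1 (-4.38), NRSN2 (-4.13), ADAMTS6 (-3.56), UCP2 (-3.31) and NEDD9 (-2.86).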

How the results depend on the processing

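No paired analysis was possible because the libraries carry no shared replicate numbers. Genes higher in HCC1937 numbered 1049 with library totals alone, 3591 with voom, 2593 with the length and GC offset, 3788 with the offset and without E7, 1007 at an adjusted p of 0.01, and 1340 to 3554 with each library left out. Genes lower numbered 5026 with voom, 1764 at 0.01, and 2344 to 4780 with each library left out. Of genes past 2-fold, 473 higher and 836 lower ones were measured in both lines, and 864 lower ones passed a filter of 5 CPM. Opposite genes up in HCC1937 numbered 424 with voom, 450 with the offset, 720 with the offset and without E7, 134 at 0.01, and 192 to 445 with each library left out; those up in MDA-MB-231 numbered 713 with voom, 663 with the offset and without E7, 161 at 0.01, and 251 to 675. The high ends of these ranges, 3554, 4780, 445 and 675, came without E7. The difference of ROCK2 was not called with library totals (0.46), voom (0.47) or no filter (0.64), and ran from 0.50 to 0.77 with each library left out; that of PIK3CA was 0.68 with library totals and not called. Of 3855 values for 184 named genes, 3787 kept direction and call, 54 lost the call, 14 gained it and 0 turned. Under 19 alternative fits, which leave out those with another filter on low counts, 2562 of the 4539 calls passed in the same direction.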

Other observations

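Of 49 lysosome and autophagy genes, 15 were higher and 8 lower in HCC1937, and 26 and 12 without E7, beside 11.5% and 20.6% of all genes (24.7% and 33.3% without E7). CTSB, the protease cathepsin B, rose from 256, 257 and 256 CPM to 944, 929 and 944 CPM in HCC1937, and its effect in MDA-MB-231 was 0.14 (difference 1.73 ± 0.10, adjusted p = 5.05e-07 by edgeR's quasi-likelihood test). CTSL, another cathepsin, and NEU1, a sialidase, had differences of 1.51 ± 0.12 and 1.08 ± 0.10. Of 32 genes of a list of DNA damage and growth arrest targets, 10 were higher and 9 lower, beside 11.5% and 20.6% of all genes. Without E7 the counts were 12 and 12, beside 24.7% and 33.3%. The median difference of the list was 0.06, and 0.01 without E7. The genes named next are both among the higher ones, and the lower ones are not named. GADD45B, a stress-induced regulator, fell from 144, 133 and 132 CPM to 55.7, 61.7 and 59.1 CPM in MDA-MB-231 and rose from 24.5, 23.4 and 22.8 CPM to 77.1, 73.3 and 75.8 CPM in HCC1937. CDKN1A, the cell cycle inhibitor p21, rose in both lines, 1.48 ± 0.10 more in HCC1937.

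Of 33 cholesterol genes, 10 were higher and 3 lower, beside 11.5% and 20.6% of all genes, and 17 and 8 without E7. HMGCS1, an enzyme of cholesterol synthesis, fell in both lines, in MDA-MB-231 from 390.0 to 59.9 CPM and in HCC1937 from 139 to 61.3 CPM (difference 1.52 ± 0.14). Keratins were higher in 0 of 18 cases and lower in 3, beside 11.5% and 20.6% of all genes. Without E7, 4 keratins were higher and 3 lower, beside 24.7% and 33.3%. Their median difference was -0.34, and -0.06 without E7. KRT7, a simple epithelial keratin, rose in MDA-MB-231 from 103 to 621 CPM and in HCC1937 from 1084 to 2580 CPM, with a difference of -1.34 ± 0.22.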
